A study of Coturnix japonica with 15 samples.

Results

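The livers compared here came from Japanese quail (Coturnix japonica) embryos exposed to the lower dose of ethinylestradiol and from embryos given only the solvent. Ethinylestradiol is the synthetic oestrogen of contraceptive pills, and it activates oestrogen receptors. Eggs in the treated group received 3.33 µg per g of egg, and eggs in the solvent group received dimethyl sulfoxide (DMSO). The 10 µl dose went into the air cell, the eggs were then incubated (37 °C, 60% humidity), and the left liver lobe was taken on embryonic day 9. The comparison used the 5 libraries of the 3.33 µg/g group and the 5 solvent libraries, 10 of the 15 libraries in all. The remaining 5 libraries came from eggs given 33.3 µg/g, which entered the same fit and are used here as a second dose. The values were estimated transcript counts, summed over the transcripts of each gene for 20308 gene identifiers. The labels do not give the sex of the embryos or say whether a library held 1 embryo or several, so a p-value measures only the spread between these libraries.

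In laying birds the ovary's oestrogen turns the liver into the source of egg yolk. Hepatocytes then secrete vitellogenins, apolipoprotein-rich particles and carrier proteins for vitamins and metals, which travel in the blood to the growing oocyte. The oestrogen receptor encoded by ESR1 is the main hepatic mediator of this programme. Making such particles draws on fatty acid and triglyceride synthesis and on the secretory pathway, from the endoplasmic reticulum to the Golgi. Ketogenesis and fatty acid oxidation consume the same fatty acids.

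The liver identity of the samples was checked first. Albumin took 4.85% to 11.6% of the counts in the 3.33 µg/g libraries and 10.2% to 13.3% in the solvent libraries. The totals were 22075439 to 37046558 estimated counts in the 3.33 µg/g libraries and 21726195 to 32140126 in the solvent libraries. Replicate 4 of the 3.33 µg/g group had the 4.85% albumin share, and its 4 companions held at least 9.71%. In solvent replicate 3 the mean level of chromosome Z genes was low, at 3.13 on the log2 scale of CPM (counts per 1000000 counted), and the same held for replicates 3 and 4 of the 3.33 µg/g group, at 3.16 and 3.08, and for 33.3 µg/g replicate 1, at 3.11. The other solvent libraries lay at 3.43 to 3.49, and the other 3.33 µg/g libraries higher, at 3.55 to 3.61. The mean chromosome Z level differed between the groups by -0.01 on that scale (exact permutation test, two-sided p = 0.992). A test of means cannot show whether the low libraries were evenly spread over the groups. On the first principal component of the 500 most variable genes, the 3.33 µg/g libraries lay between 6.84 and 20.8 and the solvent libraries between -35.1 and -15.4, with solvent replicate 3 nearest to the treated libraries.

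At 3.33 µg/g, 200 of the 14508 genes tested, 1.38% of them, differed from solvent by edgeR's quasi-likelihood test at a Benjamini-Hochberg adjusted p under 0.05. The rises outnumbered the falls: 155 genes rose (1.07% of those tested) and 45 fell (0.31%). They were also larger, with a median log2 fold change of 1.49 for rises and -0.68 for falls, while the median over all genes tested was 0.00. At least a doubling, a log2 fold change of 1 or more, was seen in 100 of the genes that rose, and 10 of the genes that fell lost as much. In solvent livers 43 of the 155 genes (27.7%) averaged under 1 CPM, as did 12.6% of all genes tested. The low-count filter kept a gene almost absent from solvent livers only where treated libraries held enough counts. The 27.7% therefore follows in part from the filter. In 142 of the genes that rose, all 5 treated libraries lay above all 5 solvent libraries, a pattern seen in 333 genes overall (2.3%). In 41 of the genes that fell, all 5 lay below, against 232 genes overall (1.6%). The genes were called on these same libraries, so both patterns follow in part from the calls and add no separate evidence. The shares of 1.07% for rises and 0.31% for falls are the background for the list counts below. List members were chosen with earlier results of these data known, so a count or median away from the background can reflect that choice.

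**Figure D1:**
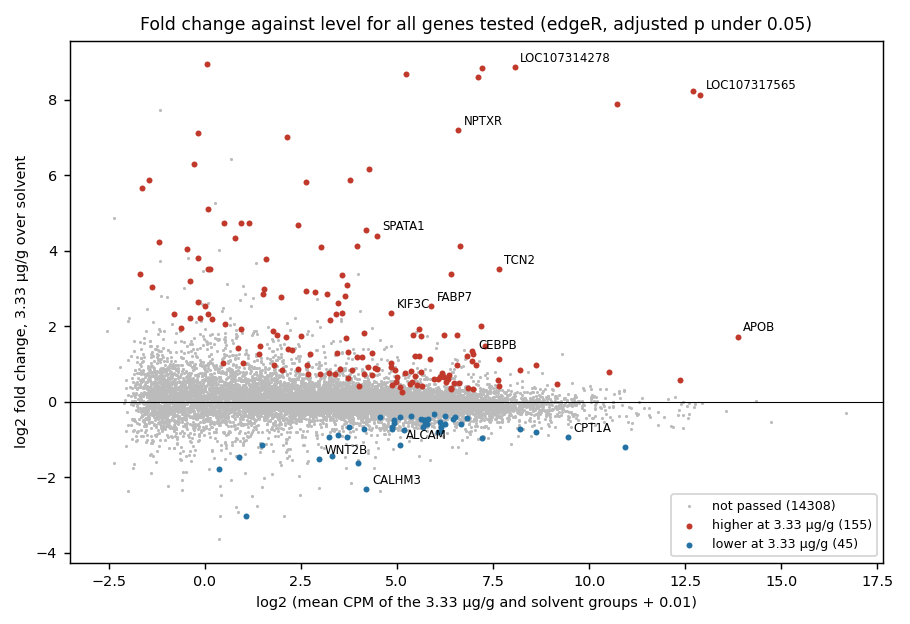
Each point is a gene tested, by its mean level over the 3.33 µg/g and solvent libraries (x axis, log2 of CPM + 0.01) and its log2 fold change, 3.33 µg/g over solvent (y axis). The 155 genes that rose (red) reach log2 fold changes above 8, while most of the 45 that fell (blue) lie between 0 and -2.

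Among the largest gains in level were genes that the annotation knows only by a locus number. LOC107317565 and LOC107317352 followed each other among the tested genes of chromosome 8, and LOC107319873 lay on chromosome 1. Together these 3 genes held 3.31 ± 1.55% of all counts in the 3.33 µg/g livers and 0.0109 ± 0.0208% in the solvent livers (SD, n = 5 each). Their joint share was 1.70%, 4.07%, 5.09%, 4.02% and 1.66% in replicates 1 to 5 of the 3.33 µg/g group, against at most 0.0481% in any solvent library. With APOB added, the 4 genes took 5.65 ± 1.98% of counts in 3.33 µg/g livers and 0.696 ± 0.0884% in solvent livers (SD, n = 5 each). These 4 genes were grouped after their values had been seen, so the shares are given without a test.

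LOC107317565 stood at 9097, 20746, 23498, 14765 and 7392 CPM in 3.33 µg/g replicates 1 to 5, against 13.5, 16.3, 238, 1.13 and 1.91 CPM in solvent replicates 1 to 5. Every treated library was far above every solvent library, and solvent replicate 3 was the highest of its group. The log2 fold change was 8.13 ± 1.40 (SE, adjusted p = 0.0073). LOC107319873 averaged 13248 ± 5626 CPM in 3.33 µg/g livers and 44.3 ± 84.6 CPM in solvent livers, and LOC107317352 averaged 3360 ± 1699 CPM in 3.33 µg/g livers and 14.2 ± 27.8 CPM in solvent livers (SD, n = 5 each). Without solvent replicate 3 the log2 fold changes of these 3 genes were 10.84, 10.98 and 10.84, against 8.13, 8.23 and 7.89 with it, so that library moved their size and did not end their calls.

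Further locus-number genes showed the same on-off form at lower levels. LOC107314278 averaged 533 ± 242 CPM in 3.33 µg/g livers and 1.22 ± 2.2 CPM in solvent livers, and LOC107319112 averaged 274 ± 139 CPM in 3.33 µg/g livers and 0.764 ± 1.28 CPM in solvent livers (SD, n = 5 each). Their log2 fold changes were 8.86 and 8.59 (adjusted p = 0.000328 and 6e-05), and 11.10 and 10.45 without solvent replicate 3. LOC107317574 held 48.5, 291, 781, 259 and 97.9 CPM in 3.33 µg/g replicates 1 to 5, against at most 1.95 CPM in a solvent library, so the treated libraries themselves spanned more than an order of magnitude. Its log2 fold change was 8.85 (adjusted p = 0.00133), 9.69 without solvent replicate 3 and 8.09 without 3.33 µg/g replicate 3, and limma-voom did not call it (adjusted p = 0.131). In all 6 of these genes, solvent replicate 3 was the highest solvent library and either replicate 1 or replicate 5 was the lowest treated one. LOC107311487 on chromosome 3, already abundant in solvent livers, averaged 6285 ± 920 CPM in 3.33 µg/g livers and 4260 ± 171 CPM in solvent livers (SD, n = 5 each). Its adjusted p of 0.0483 was no longer under 0.05 when any single library other than 3.33 µg/g replicate 4 was left out, with values up to 0.117.

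**Figure D2:**
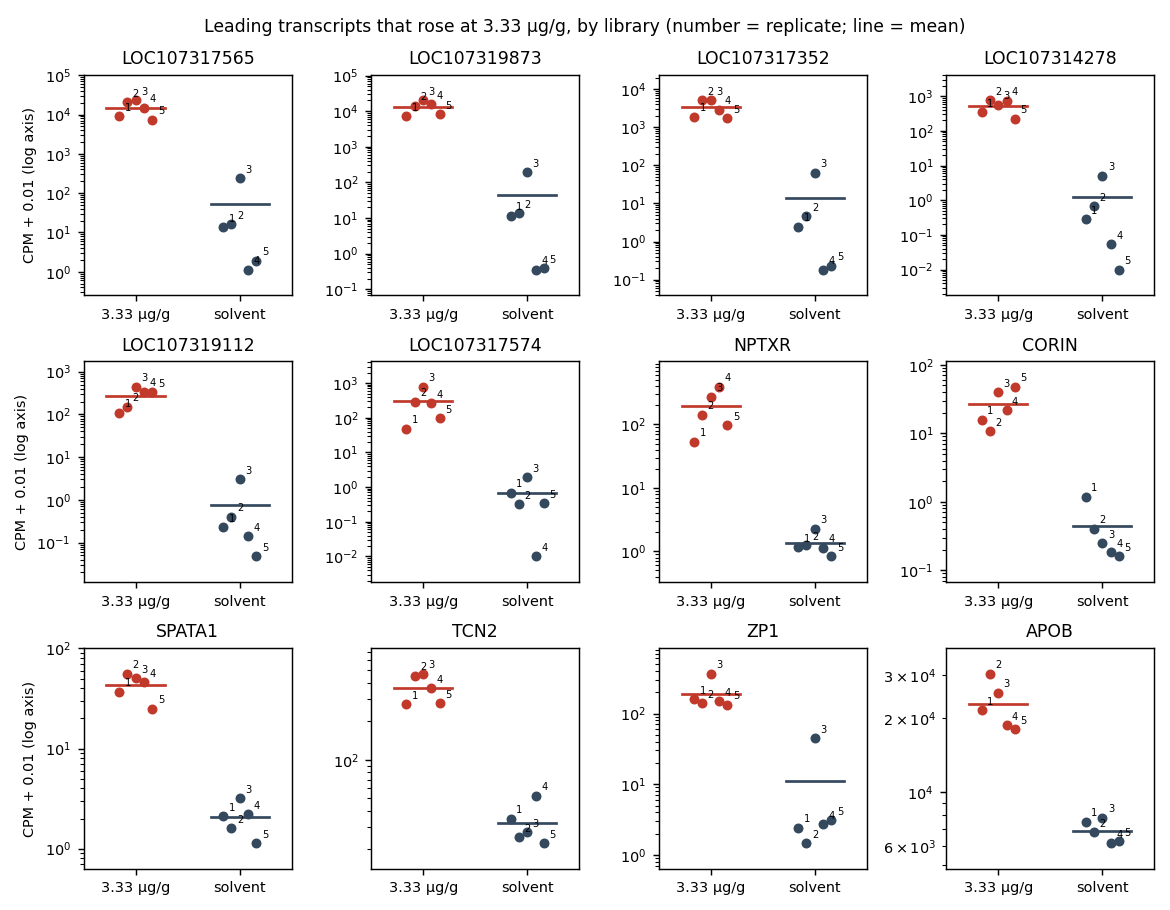
CPM + 0.01 on log axes for 12 genes that rose, 1 panel a gene, with the 5 libraries of the 3.33 µg/g group left and the 5 solvent libraries right. Numbers are replicates and lines are group means: the groups do not overlap in any panel. Solvent replicate 3 is the highest solvent point in all 6 panels of locus-number genes and in ZP1, NPTXR, SPATA1 and APOB.

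Carriers of lipid and vitamins that serve the yolk rose at the low dose. APOB, the structural protein of very-low-density lipoprotein, held 21546, 30465, 25416, 18691 and 18047 CPM in 3.33 µg/g replicates 1 to 5 and 7543, 6826, 7823, 6143 and 6254 CPM in solvent replicates 1 to 5. No treated library came near the solvent range, and the log2 fold change was 1.72 ± 0.16 (SE, adjusted p = 2.49e-05). TCN2, the plasma carrier of vitamin B12, averaged 368 ± 94.8 CPM in 3.33 µg/g livers and 32.4 ± 12.2 CPM in solvent livers (SD, n = 5 each; log2 fold change 3.50, adjusted p = 6e-05). RBP4, the plasma carrier of retinol, was already high in solvent livers and rose by 0.78 on the log2 scale, with 1846 ± 233 CPM in 3.33 µg/g livers and 1072 ± 81.3 CPM in solvent livers (SD, n = 5 each; adjusted p = 0.00464). The egg-coat glycoprotein ZP1, which avian liver secretes under oestrogen, stood at 158, 139, 365, 150 and 134 CPM in 3.33 µg/g replicates 1 to 5, against 2.42, 1.45, 45.1, 2.69 and 3.06 CPM in solvent replicates 1 to 5. Its log2 fold change was 4.13 (adjusted p = 0.0198) and 6.29 without solvent replicate 3 (adjusted p = 1.96e-06). That call was lost with 3.33 µg/g replicate 3, or solvent replicate 1, 4 or 5, left out (highest adjusted p 0.0543) and in a fit of only the 2 groups (adjusted p = 0.0754).

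Of 13 genes listed as yolk precursors and their partners, 6 could be matched by symbol, and 4 of the 6 rose. Their median log2 fold change was 1.25, against 0.00 over all genes tested. MTTP, which loads lipid onto apolipoprotein B, averaged 138 ± 18.3 CPM in 3.33 µg/g livers and 188 ± 32.7 CPM in solvent livers (SD, n = 5 each) and did not pass (adjusted p = 0.156). TF, the iron carrier transferrin, averaged 22069 ± 7999 CPM in 3.33 µg/g livers and 31839 ± 5176 CPM in solvent livers and did not pass either (adjusted p = 0.304). The vitellogenin symbols were among those not matched and are not analysed here by name.

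Several of the genes that rose followed each other in the order of tested genes along a chromosome. Genes not tested were left out of the gene order of the Coturnix japonica 2.1 assembly, which left 13321 pairs of consecutive genes. In 27 pairs (0.203%) both genes rose, which took in 46 of the 155 genes. Here and below, untested genes may lie between such neighbours, and distance was not used. No neighbouring pair fell together, but only 45 genes (0.31% of those tested) fell. With so few falls almost no such pair would be expected, so this is no contrast with the rises. On chromosome 1, 5 tested genes in a row rose: CBX6, NPTXR, DNAL4, LOC107314278 and SUN2. NPTXR, a pentraxin receptor known from neurons, was the extreme among those with a symbol, at 53.7, 142, 275, 391 and 97.7 CPM in 3.33 µg/g replicates 1 to 5, against 0.822 to 2.28 CPM in solvent livers (log2 fold change 7.20 ± 0.70 SE, adjusted p = 6e-05). The other genes with a symbol in the run rose by less: SUN2, a protein of the nuclear envelope, averaged 74.9 ± 20.3 CPM in 3.33 µg/g livers and 19.8 ± 3.33 CPM in solvent livers, DNAL4, a dynein light chain, 29.1 ± 10.5 CPM in 3.33 µg/g livers and 12 ± 0.82 CPM in solvent livers, and the Polycomb protein CBX6 53 ± 11.2 CPM in 3.33 µg/g livers and 30.2 ± 4.09 CPM in solvent livers (SD, n = 5 each). The genes that flank the run, CBX7 and GTPBP1, had log2 fold changes of -0.13 and -0.03 and did not pass (adjusted p = 0.79 and 0.863).

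On chromosome 8, SSX2IP, LOC107317565 and LOC107317352 rose in a row. Then came CTBS, a lysosomal chitobiase, with 31.4 ± 12.9 CPM in 3.33 µg/g livers and 28.4 ± 3.5 CPM in solvent livers (SD, n = 5 each), which did not pass (adjusted p = 0.854). Beyond it SPATA1 and GNG5 rose. SPATA1 held 36.8, 55.9, 50.6, 45.8 and 25.1 CPM in 3.33 µg/g replicates 1 to 5 and 2.11, 1.58, 3.19, 2.21 and 1.12 CPM in solvent replicates 1 to 5 (log2 fold change 4.40 ± 0.39 SE, adjusted p = 2.49e-05). GNG5, a gamma subunit of heterotrimeric G proteins, averaged 101 ± 8.15 CPM in 3.33 µg/g livers and 62.1 ± 4.42 CPM in solvent livers (SD, n = 5 each; adjusted p = 0.000408). SSX2IP was low throughout, at 3.75 ± 1.18 CPM in 3.33 µg/g livers and 1.57 ± 0.411 CPM in solvent livers, and its call was lost with 3.33 µg/g replicate 3, or solvent replicate 1, 4 or 5, left out (highest adjusted p 0.0602).

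Chromosome 3 held a similar run of KIF3C, RAB10 and GAREM2. KIF3C, a kinesin motor, held 38.3, 57.2, 51.3, 52 and 43.1 CPM in 3.33 µg/g replicates 1 to 5, against 8.32 to 10.6 CPM in solvent livers (log2 fold change 2.34 ± 0.19 SE, adjusted p = 2.49e-05). RAB10, a small GTPase of vesicle traffic, averaged 168 ± 25.2 CPM in 3.33 µg/g livers and 79.3 ± 6.77 CPM in solvent livers (SD, n = 5 each; adjusted p = 0.00225). The next genes, HADHA and HADHB, which encode the trifunctional enzyme of fatty acid oxidation, had log2 fold changes of -0.14 and -0.10 and did not pass (adjusted p = 0.668 and 0.838). A run on chromosome 1 joined LOC107310248, the chloride channel gene BEST3 and RAB3IP. LOC107310248 held 5.09 to 190 CPM in 3.33 µg/g livers and 0 to 0.761 CPM in solvent livers (adjusted p = 0.00239), and limma-voom did not call it (adjusted p = 0.312). BEST3 had no count in any solvent library and 0.173, 2.65, 4.86, 1.97 and 0.736 CPM in 3.33 µg/g replicates 1 to 5. Its adjusted p was 0.0227, and 0.0543 without solvent replicate 1. The BEST3 call was also lost with limma-voom (adjusted p = 0.0585) and with a replicate block (adjusted p = 0.107). Without the 4 libraries of low chromosome Z level its adjusted p was 0.176, and the fit of only the 2 groups gave it no value. RAB3IP, an exchange factor for Rab GTPases, averaged 22.3 ± 3.21 CPM in 3.33 µg/g livers and 13.3 ± 2.16 CPM in solvent livers (SD, n = 5 each; adjusted p = 0.0182). Its call was lost without solvent replicate 1 (adjusted p = 0.0592) and without 3.33 µg/g replicate 3 (adjusted p = 0.055). The vitamin B12 carrier TCN2 lies beside SLC35E4, a member of a family of sugar and nucleotide transporters, which averaged 6.91 ± 2.12 CPM in 3.33 µg/g livers and 0.99 ± 0.352 CPM in solvent livers (SD, n = 5 each; adjusted p = 0.00137). Whether reads of neighbouring genes were shared between them in the deposited counts was not tested.

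Triglyceride assembly and fatty acid elongation were among the lipid pathways with rises. Of 26 tested genes that build fatty acids or triglycerides, 4 rose and none fell. Of the 26, 20 lay above 0, as did 50.8% of all genes tested, and the median log2 fold change was 0.36. Without the 4 libraries of low chromosome Z level, 1 of the 26 passed, as AGPAT2, LPIN1 and ELOVL2 did not (adjusted p = 0.0691, 0.166 and 0.0539). AGPAT2, which makes phosphatidic acid, held 62.9, 112, 174, 133 and 93.1 CPM in 3.33 µg/g replicates 1 to 5 and 33.2, 30.4, 31, 42.9 and 31.2 CPM in solvent replicates 1 to 5 (log2 fold change 1.77 ± 0.27 SE, adjusted p = 0.00239). LPIN1, the phosphatase of the next step to diacylglycerol, ranged more widely, at 4.74, 18.4, 22.7, 36.3 and 6.74 CPM in 3.33 µg/g replicates 1 to 5 against 3.28 to 4.38 CPM in solvent livers. Replicates 1 and 5 of the 3.33 µg/g group were just above the solvent range, and the call (log2 fold change 2.32, adjusted p = 0.0142) was not made by limma-voom (adjusted p = 0.167). HSD17B12, a reductase of very-long-chain fatty acid elongation, rose by 0.49 on the log2 scale, with 115 ± 8.73 CPM in 3.33 µg/g livers and 82.1 ± 5.6 CPM in solvent livers (SD, n = 5 each; adjusted p = 0.00689).

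ELOVL2, which lengthens polyunsaturated fatty acids, had 13.3, 25, 88.4, 51.1 and 12 CPM in 3.33 µg/g replicates 1 to 5 and 0.0879 to 1.52 CPM in solvent livers. Its log2 fold change was 6.17 (adjusted p = 0.0151), and 6.91 without solvent replicate 3. The call was lost without solvent replicate 1 (adjusted p = 0.054) and with limma-voom (adjusted p = 0.332). FADS2, the desaturase that works beside it, had 30.9, 135, 176, 35.4 and 47.7 CPM in 3.33 µg/g replicates 1 to 5 against 17.7 to 43.8 CPM in solvent livers, so the groups overlapped, and it did not pass (adjusted p = 0.0646). LOC107314438, the next tested gene on chromosome 5, was likewise highest in replicates 2 and 3. It had 38.2, 126, 123, 46.4 and 47.9 CPM in 3.33 µg/g replicates 1 to 5 against 14.2 to 40.3 CPM in solvent livers. It passed with all libraries (adjusted p = 0.0269) but not with 3.33 µg/g replicate 2 or 3, or solvent replicate 2, 3, 4 or 5, left out (highest adjusted p 0.0765). FABP7, a fatty acid-binding protein best known from brain, rose, with 101 ± 26.4 CPM in 3.33 µg/g livers and 17.6 ± 2.54 CPM in solvent livers (SD, n = 5 each; log2 fold change 2.52, adjusted p = 2.49e-05). FABP7 and APOB were the members that rose among 24 tested genes of lipoproteins and lipid transport, whose median log2 fold change was -0.27. Without the 4 libraries of low chromosome Z level that median was -0.12.

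In fatty acid oxidation and ketogenesis 1 of 22 tested members, CPT1A, fell and none rose, and 21 of the 22 had a log2 fold change below 0, with a median of -0.19. Below 0 lay 49.2% of all genes tested. Without the 4 libraries of low chromosome Z level the list median was -0.07. CPT1A, which commits fatty acids to mitochondrial oxidation, averaged 481 ± 144 CPM in 3.33 µg/g livers and 922 ± 130 CPM in solvent livers (SD, n = 5 each; log2 fold change -0.94, adjusted p = 0.0254). The CPT1A call was lost with 3.33 µg/g replicate 2 or 3, or solvent replicate 1, 3 or 4, left out (highest adjusted p 0.0704), and in a fit of only the 2 groups (adjusted p = 0.051). TMLHE, the first enzyme of carnitine synthesis, was not a listed member and was picked out after its values were seen. Neither CPT1A nor TMLHE passed without the 4 libraries of low chromosome Z level (adjusted p = 0.144 and 0.053). TMLHE averaged 47.1 ± 3.95 CPM in 3.33 µg/g livers and 64.8 ± 3.87 CPM in solvent livers (SD, n = 5 each; log2 fold change -0.46, adjusted p = 0.0097).

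The nuclear receptor PPARA, which drives these oxidation genes in mammals, averaged 77.3 ± 14.4 CPM in 3.33 µg/g livers and 113 ± 26.5 CPM in solvent livers (SD, n = 5 each) and did not pass (adjusted p = 0.116). Its target ANGPTL4, an inhibitor of lipoprotein lipase, was lower in every treated library than in every solvent library, at 81.6 ± 12.5 CPM in 3.33 µg/g livers and 140 ± 16.7 CPM in solvent livers (SD, n = 5 each), with an adjusted p of 0.0596. Among 13 tested genes listed with PPARA, CPT1A was the 1 that passed. The list median was -0.23, and -0.17 without the 4 libraries of low chromosome Z level. Cholesterol synthesis and uptake had 1 fall among 25 tested genes, SCAP, the sterol-sensing escort of SREBP, with 25.3 ± 3.06 CPM in 3.33 µg/g livers and 35.2 ± 2.42 CPM in solvent livers (SD, n = 5 each; adjusted p = 0.0268). SCAP did not pass with 3.33 µg/g replicate 2, 3 or 4, or solvent replicate 1, 2, 3 or 5, left out (highest adjusted p 0.0721).

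Of 39 tested genes for translocation into the endoplasmic reticulum and for transport coats, 3 rose, none fell and 33 lay above 0. Their median log2 fold change was 0.22, and 50.8% of all genes tested lay above 0. Without the 4 libraries of low chromosome Z level none of the 3 passed by edgeR, with adjusted p of 0.0669 for SRP72, 0.115 for SEC24D and 0.138 for SSR3. SRP72, part of the signal recognition particle, averaged 94.9 ± 5.46 CPM in 3.33 µg/g livers and 74.3 ± 2.42 CPM in solvent livers (SD, n = 5 each; adjusted p = 0.00672). SEC24D, a cargo-binding subunit of the COPII coat, averaged 97.1 ± 18.7 CPM in 3.33 µg/g livers and 63.9 ± 4.91 CPM in solvent livers (SD, n = 5 each; adjusted p = 0.0151). SSR3, a subunit of the translocon-associated complex, averaged 230 ± 14.4 CPM in 3.33 µg/g livers and 172 ± 22.4 CPM in solvent livers (adjusted p = 0.034), and its call was lost without any of solvent replicates 1 to 4 or 3.33 µg/g replicates 1, 2, 3 or 5 (highest adjusted p 0.0975). Among 24 chaperones and genes of the unfolded protein response, none passed by edgeR, 11 had an unadjusted p under 0.05 (14.6% of all genes tested did), DESeq2 called 2, and the median was 0.15.

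Outside the list, GMPPB, which makes the GDP-mannose used for glycosylation, averaged 74.9 ± 10 CPM in 3.33 µg/g livers and 49 ± 2.94 CPM in solvent livers (SD, n = 5 each; adjusted p = 0.00263). SUCO, a membrane protein of the endoplasmic reticulum, rose by 1.12 on the log2 scale, with 79.4 ± 16 CPM in 3.33 µg/g livers and 36.5 ± 2.15 CPM in solvent livers (SD, n = 5 each; adjusted p = 0.000328). SEC22B, a SNARE of traffic between the endoplasmic reticulum and the Golgi, averaged 95.3 ± 4.56 CPM in 3.33 µg/g livers and 75 ± 5.38 CPM in solvent livers (adjusted p = 0.0125). These 3 genes were picked out after their values were seen. With scaling by library totals alone, SRP72 and SEC22B did not pass (adjusted p = 0.0715 and 0.0563).

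Transcription regulators changed in both directions. CEBPB, a leucine-zipper factor of liver metabolism and stress, had 170, 184, 176, 163 and 187 CPM in 3.33 µg/g replicates 1 to 5, against 77.5, 75, 66, 70.2 and 80.7 CPM in solvent replicates 1 to 5. Both groups were tight and far apart, and the log2 fold change came to 1.25 ± 0.11 (SE; adjusted p = 2.49e-05). It was the member that passed among 16 tested genes of amino acid metabolism and the integrated stress response, whose median was 0.06. Its relative CEBPA, a factor of differentiated hepatocytes, averaged 220 ± 57.1 CPM in 3.33 µg/g livers and 364 ± 54.4 CPM in solvent livers (SD, n = 5 each; log2 fold change -0.73, adjusted p = 0.0498). That call lay at the threshold and was lost without any single library except solvent replicate 5 and 3.33 µg/g replicate 1 (highest adjusted p 0.117), with DESeq2's size factors in edgeR (adjusted p = 0.0501) and with limma-voom (adjusted p = 0.052). HNF4A, another hepatocyte factor, averaged 34.9 ± 7.74 CPM in 3.33 µg/g livers and 55.4 ± 10.9 CPM in solvent livers and did not pass (adjusted p = 0.0843).

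NCOA1, a coactivator of steroid receptors, was the gene that passed among 18 tested oestrogen receptors and coregulators. It averaged 92.3 ± 4.16 CPM in 3.33 µg/g livers and 58.2 ± 8.72 CPM in solvent livers (SD, n = 5 each; log2 fold change 0.67, adjusted p = 0.0107). ESR1 stood at 13.2, 22.1, 18.3, 18.9 and 14.7 CPM in 3.33 µg/g replicates 1 to 5 and 15.8, 15.6, 40, 15 and 25.2 CPM in solvent replicates 1 to 5, and did not pass (adjusted p = 0.566). ESR2, the second oestrogen receptor, was near 1 CPM in most libraries, with 1.58 ± 0.88 CPM in 3.33 µg/g livers and 1.2 ± 0.28 CPM in solvent livers (adjusted p = 0.724). RARA and NR2F1 were picked out after their values were seen, and both rose. RARA, a retinoic acid receptor, averaged 66.9 ± 12.1 CPM in 3.33 µg/g livers and 29 ± 1.79 CPM in solvent livers (adjusted p = 0.00098). The orphan receptor NR2F1, on chromosome Z, averaged 175 ± 26.2 CPM in 3.33 µg/g livers and 89.7 ± 11.3 CPM in solvent livers (SD, n = 5 each; adjusted p = 0.00117).

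**Figure D3:**
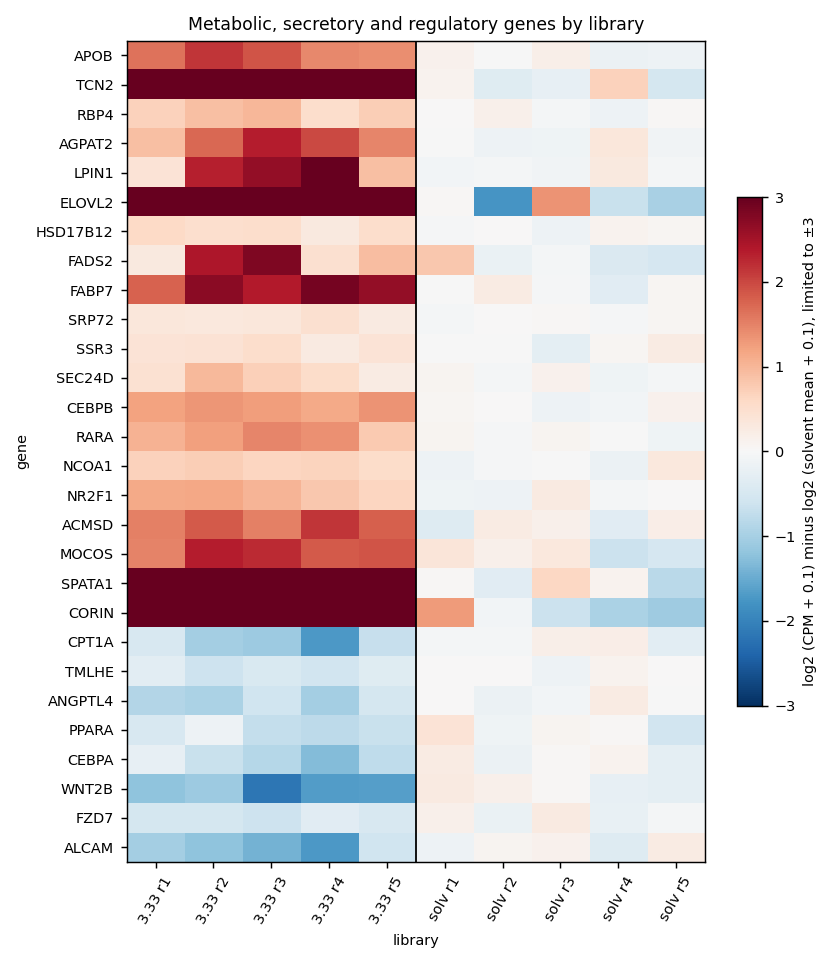
Rows are 28 genes and columns the 5 libraries at 3.33 µg/g (left of the line) and the 5 solvent libraries (right of it), coloured by log2 of CPM + 0.1 relative to the solvent mean and limited to ±3. CEBPB and NCOA1 are even across the treated libraries, whereas LPIN1 and FADS2 are strong in some and faint in others. CPT1A, WNT2B and ALCAM are below the solvent mean in all 5 treated libraries.

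A few enzymes and transporters outside the lists, picked out after their values were seen, rose. MOCOS, which activates the molybdenum cofactor of xanthine dehydrogenase and aldehyde oxidase, had 163, 300, 274, 210 and 217 CPM in 3.33 µg/g replicates 1 to 5 and 75, 65.4, 72.7, 37.4 and 41.3 CPM in solvent replicates 1 to 5 (adjusted p = 0.000201). ACMSD, which diverts tryptophan breakdown away from NAD synthesis, averaged 147 ± 27.8 CPM in 3.33 µg/g livers and 43 ± 8.87 CPM in solvent livers (SD, n = 5 each; adjusted p = 0.000356). BST1, an enzyme that consumes NAD, averaged 66.5 ± 29.5 CPM in 3.33 µg/g livers and 19.5 ± 1.72 CPM in solvent livers with replicate 2 at 17 CPM inside the solvent range (adjusted p = 0.0209). The BST1 call was lost with 3.33 µg/g replicate 3, or solvent replicate 1, 2 or 4, left out (highest adjusted p 0.0635) and with limma-voom (adjusted p = 0.0846). SLC41A3, a magnesium transporter, averaged 125 ± 10.1 CPM in 3.33 µg/g livers and 63.4 ± 14.9 CPM in solvent livers (SD, n = 5 each; adjusted p = 0.00263).

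Other rises started from almost no transcript. CORIN, a membrane protease that activates natriuretic peptide in mammalian heart, had 15.7, 10.7, 39.7, 21.8 and 47.7 CPM in 3.33 µg/g replicates 1 to 5 and 0.149 to 1.18 CPM in solvent livers (log2 fold change 5.88, adjusted p = 0.000201; 6.82 without solvent replicate 1). KCNK9, a two-pore potassium channel, was lower but even, at 1.40 to 2.03 CPM in 3.33 µg/g livers against 0 to 0.395 CPM in solvent livers (log2 fold change 3.80, adjusted p = 0.00225; 4.96 without solvent replicate 2). TM6SF1, a lysosomal membrane protein, spread from 5.78 to 62.7 CPM in 3.33 µg/g livers against 1.12 to 2.04 CPM in solvent livers (adjusted p = 0.00132), and limma-voom did not call it (adjusted p = 0.084). CKMT2, the sarcomeric mitochondrial creatine kinase, lies on chromosome Z and spread from 0.644 to 25.6 CPM in 3.33 µg/g livers against at most 0.143 CPM in solvent livers. Its log2 fold change was 7.02 (adjusted p = 0.00225), and 6.07 without 3.33 µg/g replicate 2. Replicates 4 and 3, of low chromosome Z level, held 0.644 and 5.93 CPM. Replicate 5, whose chromosome Z level was not low, held 3.63 CPM, less than replicate 3, and replicates 1 and 2 held more than replicate 3. The order of the treated libraries therefore did not simply follow their chromosome Z level. Without the 4 libraries of low chromosome Z level the log2 fold change was 7.92 (adjusted p = 0.00716). The CKMT2 call was not made by limma-voom (adjusted p = 0.0951). VCAM1, an adhesion molecule, ran from 1.74 to 11.6 CPM in 3.33 µg/g livers and from 0.224 to 0.65 CPM in solvent livers (log2 fold change 3.79, adjusted p = 0.00127).

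The falls were fewer and included Wnt signalling genes. Of 25 tested genes of the Wnt pathway and liver zonation, 2 fell and none rose, with a median of 0.01. WNT2B, a secreted Wnt ligand, had 4.97, 5.42, 2.49, 3.56 and 3.63 CPM in 3.33 µg/g replicates 1 to 5, against 13.9, 13, 11.9, 9.79 and 9.45 CPM in solvent replicates 1 to 5 (log2 fold change -1.52 ± 0.21 SE, adjusted p = 0.00116). FZD7, a Wnt receptor, averaged 43.5 ± 3.09 CPM in 3.33 µg/g livers and 61.1 ± 9.07 CPM in solvent livers (SD, n = 5 each; adjusted p = 0.0206). The FZD7 call was lost with 3.33 µg/g replicate 3, or solvent replicate 1, left out (highest adjusted p 0.0721) and with scaling by library totals alone (adjusted p = 0.156). ALCAM, a cell adhesion molecule, averaged 21.1 ± 6.3 CPM in 3.33 µg/g livers and 46.6 ± 7.7 CPM in solvent livers (SD, n = 5 each; log2 fold change -1.14, adjusted p = 0.00323). PLA2G3, a secreted phospholipase, averaged 5.32 ± 1.7 CPM in 3.33 µg/g livers and 14.3 ± 4.21 CPM in solvent livers (adjusted p = 0.0131). CALHM3, a calcium homeostasis modulator channel, averaged 6.16 ± 3.28 CPM in 3.33 µg/g livers and 30.8 ± 14.4 CPM in solvent livers (SD, n = 5 each; log2 fold change -2.31, adjusted p = 0.0168; adjusted p = 0.053 without 3.33 µg/g replicate 3).

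Of 29 tested plasma protein genes, RBP4 alone passed, 22 lay below 0, and the median log2 fold change was -0.30. That median was -0.07 without the 4 libraries of low chromosome Z level. Of all genes tested, 49.2% lay below 0. The 3 fibrinogen chains stood close together: FGA averaged 3547 ± 1266 CPM in 3.33 µg/g livers and 5659 ± 1228 CPM in solvent livers, FGB 3501 ± 1106 CPM in 3.33 µg/g livers and 5498 ± 1465 CPM in solvent livers, and FGG 2811 ± 906 CPM in 3.33 µg/g livers and 4300 ± 1122 CPM in solvent livers (SD, n = 5 each), with adjusted p of 0.176, 0.195 and 0.218. APOA1, the main protein of high-density lipoprotein, averaged 4246 ± 1552 CPM in 3.33 µg/g livers and 6882 ± 737 CPM in solvent livers (adjusted p = 0.159). AHSG, the fetuin A gene, averaged 884 ± 521 CPM in 3.33 µg/g livers and 371 ± 185 CPM in solvent livers with overlapping groups (adjusted p = 0.321). Albumin's share of counts was 9.43 ± 2.65% in 3.33 µg/g livers and 11.5 ± 1.27% in solvent livers (SD, n = 5 each), a difference of -2.07 points (exact permutation test, two-sided p = 0.127, where 0.00794 is the smallest possible).

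No gene passed by edgeR in 7 further lists of 158 genes. Of these, 26 (16.5%) had an unadjusted p under 0.05, against 14.6% of all genes tested, DESeq2 called 7 and limma-voom called 0. The lists differed in this. Such genes were 6 of 13 for acute phase and interferon, 6 of 14 for bile acids and 6 of 20 for glucose and glycogen. They were 3 of 7 for steroid and drug metabolism, 3 of 20 for the thyroid and growth axes, 2 of 34 for the cell cycle and 0 of 50 for ribosomal proteins. Cell cycle and replication genes lay below 0 in 30 of 34 cases, against 49.2% of all genes tested, with a median of -0.18. The 13 acute phase and interferon genes had a median of -0.65. The 20 genes of glucose and glycogen metabolism had a median of -0.25, the 14 of bile acids and export -0.24, the 7 of steroid and drug metabolism -0.15 and the 20 of the thyroid and growth axes -0.06. The 50 ribosomal protein genes had a median of -0.01, next to 0.00 over all genes tested. These medians also moved without the 4 libraries of low chromosome Z level. They were then -0.75 for acute phase and interferon, -0.37 for the cell cycle and -0.14 for glucose and glycogen. Bile acids and export stood at -0.11, steroid and drug metabolism at -0.08, the thyroid and growth axes at 0.01 and ribosomal proteins at 0.07.

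**Figure D4:**
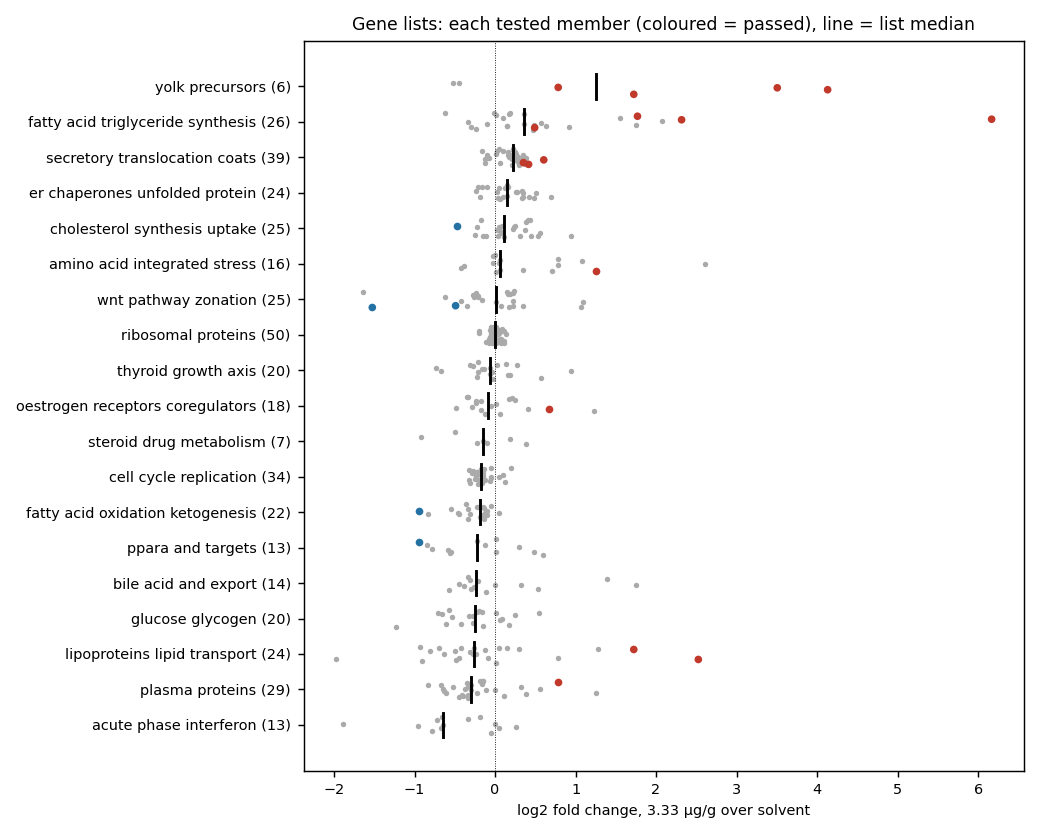
Each point is a tested gene of 1 of 19 lists, by its log2 fold change, 3.33 µg/g over solvent (x axis), with the number tested in brackets, passing genes in red (rose) or blue (fell), and list medians as black lines. Yolk precursors have the highest median, 1.25, and ribosomal proteins cluster at 0.

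Markers of other cells were read beside these lists. Among 8 tested macrophage and leukocyte markers 7 lay above 0, against 50.8% of all genes tested. Their summed level was 81.7 to 223 CPM in 3.33 µg/g livers and 50.4 to 87.3 CPM in solvent livers. C1QB, a complement subunit of macrophages, passed, at 11.6, 13.3, 21.9, 13.6 and 14.2 CPM in 3.33 µg/g replicates 1 to 5 against 9.1, 6.85, 9.75, 9.14 and 5.98 CPM in solvent replicates 1 to 5 (adjusted p = 0.0234). It did not pass with 3.33 µg/g replicate 3, or solvent replicate 2 or 5, left out (highest adjusted p 0.0672) or in a fit of only the 2 groups (adjusted p = 0.0603). C1QA and the macrophage receptor CSF1R did not pass (adjusted p = 0.233 and 0.175), and both were highest in 3.33 µg/g replicate 3, at 25.2 and 31.4 CPM. In 33.3 µg/g livers C1QB and CSF1R averaged 8.37 and 9.47 CPM, against 8.16 and 10.3 CPM in solvent livers. The summed level of 7 hepatocyte markers was 67436 to 155229 CPM in 3.33 µg/g livers and 146535 to 176149 CPM in solvent livers. ALB and TF made up most of that sum, averaging 116225 and 31839 CPM in solvent livers, so it says little of the other members. Both were lowest in 3.33 µg/g replicate 4, the library of low albumin share. Of the 7 markers 6 lay below 0 and 1 above. None of the 7 passed by edgeR, 4 had an unadjusted p under 0.05, and DESeq2 called 1. The 5 kidney markers matched summed to 32.6 to 197 CPM in 3.33 µg/g livers and 15.1 to 53.3 CPM in solvent livers. Of these 5, 3 averaged under 1 CPM and only 2 were tested. Of those 2, 1 lay above 0 and 1 below, and neither passed, so the sum says little of the group. The 2 pancreas markers summed to at most 0.0887 CPM in any of these livers. In whole tissue, fewer cells of a type and less RNA per cell cannot be told apart, and the part of these markers in the changes above was not tested.

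The levels of the genes that rose varied between the treated libraries. Among the 155 genes, the ratio of the highest to the lowest 3.33 µg/g library had a median of 1.90, against 1.57 over all genes tested. It exceeded 5 in 28 of the 155, in 0 of the 45 genes that fell and in 1025 of the 14508 genes tested. The same ratio in solvent libraries was not taken, so unequal response and noise at low levels were not separated. Replicates 3 and 4 were the highest treated library for 49 and 47 of the 155 genes (31.6% and 30.3%). Replicates 5 and 1 were the lowest for 57 and 46 (36.8% and 29.7%). Over all genes tested, replicate 4 was the highest library in 26.9% of cases and replicate 3 in 15.2%. Among solvent libraries, replicate 3 was the highest for 54 of the 155 genes (34.8%), against 25.7% of all genes tested. Of the 45 genes that fell, 23 were lowest in replicate 4 of the 3.33 µg/g group, the library with the low albumin share. Over all genes tested, the lowest treated library was replicate 4 in 26.3% of cases, replicate 5 in 20.5% and replicate 1 in 16.8%.

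With each library left out in turn, the number of genes passing ran from 111 to 264, with 95 to 191 rises and 16 to 74 falls. Of the 200 genes, 94 passed in all 10 of these fits, 85 rises and 9 falls. The counts were lowest without solvent replicate 1 (111 genes) and without 3.33 µg/g replicate 3 (117 genes). Falls were down to 16 without solvent replicate 1 and without 3.33 µg/g replicate 3 or 4, and 29 without solvent replicate 2, and they numbered 74 without 3.33 µg/g replicate 1. Without the 4 libraries of low chromosome Z level, 78 genes passed, 65 of them among the 200. Of the 62 described here that passed with all libraries, 26 did not pass in that smaller fit. Among the 26 were RBP4 (adjusted p = 0.053), GMPPB (0.0592), ALCAM (0.0706), RAB10 (0.0747), SLC41A3 (0.0809), BST1 (0.252) and CALHM3 (0.264). So were SCAP, SEC22B, CEBPA, FZD7, C1QB, TMEM192, SSX2IP, RAB3IP, LOC107314438 and LOC107315705, beside those given above. All 62 kept their direction in every alternative that gave a value.

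**Figure D5:**
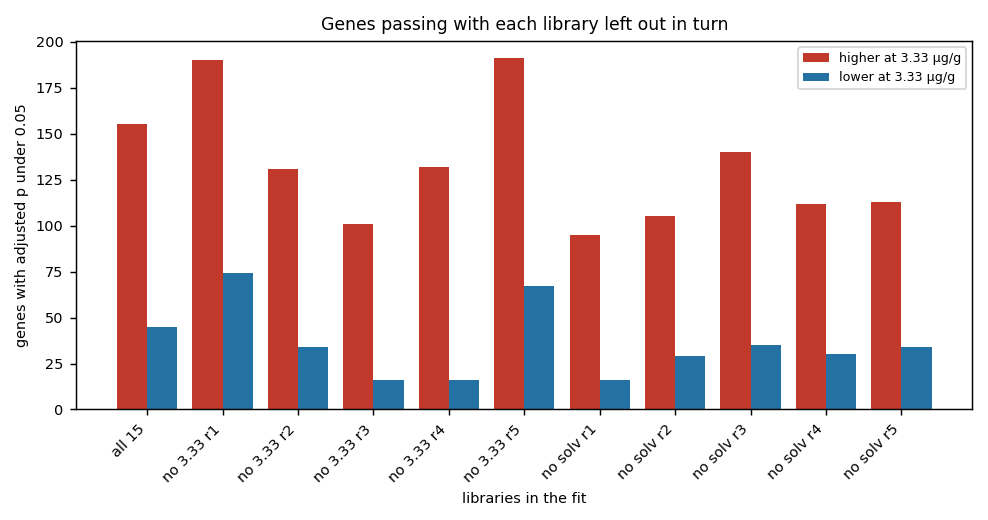
Bars give the number of genes with an adjusted p under 0.05, higher (red) or lower (blue) at 3.33 µg/g, with all 15 libraries and with each of the 10 compared libraries left out in turn. Rises range from 95 to 191 and falls from 16 to 74.

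The larger dose was set beside the low one in the same fit. At 3.33 against 33.3 µg/g, 0 of the 14508 genes (0.0%) passed by edgeR, 805 had an unadjusted p under 0.05, and DESeq2 called 19. The 2 smallest p-values belonged to HARBI1, a gene derived from a transposase, at 15.4 ± 1.91 CPM in 3.33 µg/g livers (SD, n = 5) and 23.2 to 38.5 CPM in 33.3 µg/g livers (adjusted p = 0.091), and to TMEM192, a lysosomal membrane protein, at 16.2 ± 2.55 CPM in 3.33 µg/g livers against 9.43 to 10.7 CPM in 33.3 µg/g livers (adjusted p = 0.091). TMEM192 was also higher at 3.33 µg/g than in solvent livers, which held 10.5 ± 1.09 CPM (SD, n = 5 each; log2 fold change 0.62, adjusted p = 0.00978). HARBI1 held 14.3 ± 0.812 CPM in solvent livers (SD, n = 5) and did not pass against solvent (adjusted p = 0.756). LOC107315705 held 1.13 to 2.43 CPM at 3.33 µg/g, 0.367 to 0.796 CPM at 33.3 µg/g and 0.26 to 0.483 CPM in solvent livers. Its log2 fold change between the doses was 1.58 (adjusted p = 0.242). LOC107315067 and CGN, also among the smallest p-values, had log2 fold changes of -0.66 and -0.55 (adjusted p = 0.107 and 0.242). Against solvent neither passed (adjusted p = 0.696 and 0.449). All these genes were picked on the same 3.33 µg/g libraries that are set against solvent here.

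For the leading genes the difference between the doses had wide or narrow intervals according to their spread. APOB differed by 0.21 on the log2 scale, 3.33 over 33.3 µg/g (95% confidence interval -0.11 to 0.53). CPT1A differed by -0.18 (95% confidence interval -0.60 to 0.23). LOC107317565, LOC107319873 and LOC107317352 together held 3.31 ± 1.55% of counts at 3.33 µg/g and 2.57 ± 1.47% at 33.3 µg/g (SD, n = 5 each). Over the 200 genes that changed at 3.33 µg/g, the median absolute log2 difference between the doses was 0.25. Of these 200, 41 had an unadjusted p under 0.05 in that comparison, as did 805 of all 14508 tested. Because the 200 were selected on the same 3.33 µg/g libraries, they are prone to look more extreme at that dose. Of the 155 rises 105 were higher at 3.33 than at 33.3 µg/g, and of the 45 falls 41 were lower. The 41 small p-values are therefore no measure of a dose difference. A p that misses the threshold does not show that the doses act alike.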

How the data were processed

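Liver RNA of 15 libraries was sequenced by the submitters. The deposited table holds estimated counts per transcript, made with kallisto per the submitters' processing notes; version, genome build and annotation: not given in the sources used here. Its 47418 transcript rows were summed to 20308 gene identifiers, of which 18900 matched the RefSeq table of Coturnix japonica 2.1, 12972 with a symbol and 5928 with a locus number only. Sums were rounded to whole numbers. Low counts were removed with filterByExpr, libraries were scaled by TMM, and all 15 libraries were fitted with 1 term per group in edgeR 4.0.16 (R 4.3.3), whose quasi-likelihood test was applied with robust dispersions and Benjamini-Hochberg adjustment over the 14508 genes tested. CPM values use the TMM-scaled totals, except the summed marker levels, which use the unscaled library totals. SE is the log2 fold change divided by the root of F. Albumin share and library measures were compared with exact permutation tests. Alternatives used limma 3.58.1 and DESeq2 1.42.0.

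Members and lists were chosen with earlier results of these data known. Named were the 15 largest rises and falls with a symbol and a mean of at least 1 CPM, the 10 locus-number genes of highest level among the rises, the genes of largest CPM difference, passing list members, ESR1, ESR2 and the smallest p-values between doses; others were picked after their values were seen, and the text leaves out some named by this rule. No promoter sequence was available in the sources used here, so none is shown. A gene is not reported here and was left out of the lists. Totals ran from 21715273 to 54591426 counts and set the precision of low genes.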

Additional observations from a re-analysis of the deposited data

Results flagged for a closer look

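Single libraries stood apart from the other 4 of their group in 22 cases, for 20 of the 81 genes given with values, among 162 groups examined. The mark was Dixon's ratio, the gap to the nearest library over the group's range, above 0.71. For genes it was taken on CPM without logarithms. It marks about 1 in 20 groups of normally distributed values. CPM near 0 can be skewed, so no chance count is set beside the 22. Solvent replicate 3 accounted for 8 of these marks. It was the high library of its group for LOC107317565 (238 CPM, the others at most 16.3), LOC107319873 (195, at most 13.8), LOC107317352 (63.9, at most 4.52), LOC107314278 (5.13, at most 0.659), LOC107319112 (3.04, at most 0.395), LOC107310248 (0.761, at most 0.186), ZP1 (45.1, at most 3.06) and NPTXR (2.28, at most 1.23). The same library had the low chromosome Z level of 3.13 (log2 CPM), against 3.43 to 3.49 in the other solvent libraries.

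In the 3.33 µg/g group, replicate 3 was apart for ZP1 (365 CPM, the others 134 to 158), C1QA (25.2, the others 6.87 to 10.5), C1QB (21.9, the others 11.6 to 14.2) and CSF1R (31.4, the others 10.4 to 14.8). Replicate 4 was apart for SUN2 (110 CPM, the others 58.2 to 69.5) and for the albumin share (4.85%, the others 9.71% to 11.6%).

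Among the remaining solvent libraries, replicate 1 was high for CORIN (1.18 CPM), FADS2 (43.8) and SLC35E4 (1.61), and replicate 2 was high for AHSG (694) and KCNK9 (0.395) and low for C1QA (3.65). Replicate 4 was high for AGPAT2 (42.9 CPM), LPIN1 (4.38), FGB (8028) and the erythroid marker level (4.10, log2 CPM).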

How the results depend on the processing

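The count of 200 genes (155 higher, 45 lower) was within 1.5 times under other scalings, count filters, the erythroid covariate and the fit of 2 groups. It was 656 (407 and 249) with DESeq2, 469 (302 and 167) at an adjusted p under 0.1, 66 (64 and 2) when tested against 1.5-fold, and 78 (72 and 6) without the 4 libraries of low chromosome Z level, an alternative chosen after seeing the data that leaves 3 libraries at 3.33 µg/g and 4 solvent ones. With limma-voom 96 genes were higher, and with a chromosome Z covariate 96 were lower. The labels state no pairing by replicate number. Correlations of same-numbered libraries ran from -0.093 to 0.089. No reference was set beside them, so they do not show whether the numbers paired the libraries. The fit with a replicate block called 117 (103 and 14). Leaving out 1 library gave 111 to 264 genes, 95 to 191 higher and 16 to 74 lower; 46 of the 200 held in 21 alternatives and 38 also in the test against 1.5-fold. Between doses, the count of 0 held in all 10 such fits and was 19 (7 and 12) with DESeq2, 2 (1 and 1) at an adjusted p under 0.1 and 1 (lower) without the 4 libraries. The albumin difference ran from -2.62 to -0.922 points. Direction changed for ALB, at 0.018 (log2) without the 4 libraries, and for CTBS, at -0.062 to 0.316 with 1 library left out, neither of which passed; the cause was not tested. No promoter comparison was run.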
